A study of Mus musculus with 8 samples.

Results

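Cyclic AMP and cyclic GMP are small second messengers made inside cells by cyclases and removed by phosphodiesterases. Adenylyl cyclases make cAMP from ATP, most of them at the membrane under the control of G proteins and calcium. Guanylyl cyclases make cGMP, either as soluble receptors of nitric oxide or as membrane receptors of peptides and other ligands. Phosphodiesterases hydrolyse cAMP, cGMP or both, and in neurons these messengers set the activity of protein kinases, ion channels and the transcription factor CREB. The genes described here are the protein-coding genes whose symbols mark them as an adenylyl cyclase (Adcy and a number), a catalytic phosphodiesterase (Pde, a number and a letter from a to d) or a guanylyl cyclase (Gucy and a number). There were 41 of them among 22430 listed genes, namely 10 Adcy, 22 Pde and 9 Gucy genes. Pde6d fits this symbol pattern, but its product is a prenyl-binding protein and no enzyme, so it is named apart below.

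The RNA came from brains of 8 male mice of the C57Bl/6JRj strain, per the methods of the study, and the labels call the tissue both whole brain and a hemisphere. Animals of the first group were young adults of 6 months (6m, n = 4), those of the second were aged, at 24 months (24m, n = 4), and no genotype or treatment beyond age is given for either. Polyadenylated RNA was sequenced and counted per gene, and the comparison asks how the synthesis and breakdown of cyclic nucleotides differ in RNA level between the ages. In RNA from a whole brain, fewer cells of a type and less RNA per cell cannot be told apart.

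The libraries held from 63460940 to 103462414 counts. Library 24m replicate 1, the deepest, stood apart from the other 24m libraries: the chi-square per degree of freedom over all genes was 179 to 417 against them, and 13.0 to 61.2 among the other three. Markers of neurons summed to 2277 to 2631 CPM (counts scaled to 1e+06 per library) at 6m and 2987 to 3174 at 24m. Those of oligodendrocytes summed to 3324 to 4183 and 3565 to 4214, so every library held RNA with markers of both. No other tissue or brain region was set beside these sums, so they cannot test the label of whole brain or hemisphere. Over all 16730 genes tested with edgeR's quasi-likelihood test, 25.3% were called higher at 24m and 18.3% lower, 43.6% in all, a call needing both a p of at most 0.05 after Benjamini-Hochberg adjustment and a log2 fold change, or log2 change, of at least 0.58 either way. With scaling by library totals in place of TMM factors, 75.7% of all calls were higher in place of 58.1%, and with quantile normalization and DESeq2 47.9% were. Over all genes the median log2 change was 0.00, and these scalings moved it to 0.21 and to -0.10.

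Of the 41 genes, 38 had enough counts to be tested. Against the background of 25.3%, 20 of the 38 (52.6%) were called higher at 24m, and against 18.3%, 2 were called lower, Adcy4 and Gucy1b2. The median log2 change was 0.66 for the 38 genes and 0.00 for all genes tested. Cell type markers also moved: 4 of 8 neuronal, 5 of 8 astrocyte and 2 of 3 oligodendrocyte precursor markers were called higher and 1 astrocyte marker lower, and none was at 0 counts in all libraries. The astrocyte list summed to 2892 to 3826 CPM at 6m and 2847 to 3844 at 24m. Most of that sum was Aldoc, named after its values were seen, which was not called and averaged 2507 CPM at 6m and 2057 at 24m. The precursor list summed to 20.9 to 22.0 CPM at 6m and 32.0 to 51.1 at 24m, and the part of these cell types in the results was not tested. All 4 libraries of 24m lay above all 4 of 6m in 20 of the 38 genes, where 28.4% of all tested genes did so, and below them in 2, where 26.8% of all did so. The genes not tested were Gucy2d, Gucy2f and Pde6a, photoreceptor or olfactory genes with at most 10, 16 and 8 counts in any library. By family, 5 of 10 adenylyl cyclases, 12 of 21 tested phosphodiesterases and 3 of 7 tested guanylyl cyclases rose. No phosphodiesterase was called lower in the edgeR fit, 0 had an unadjusted p under 0.05 in that direction, and DESeq2 on the same counts also called 0.

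**Figure D1:**
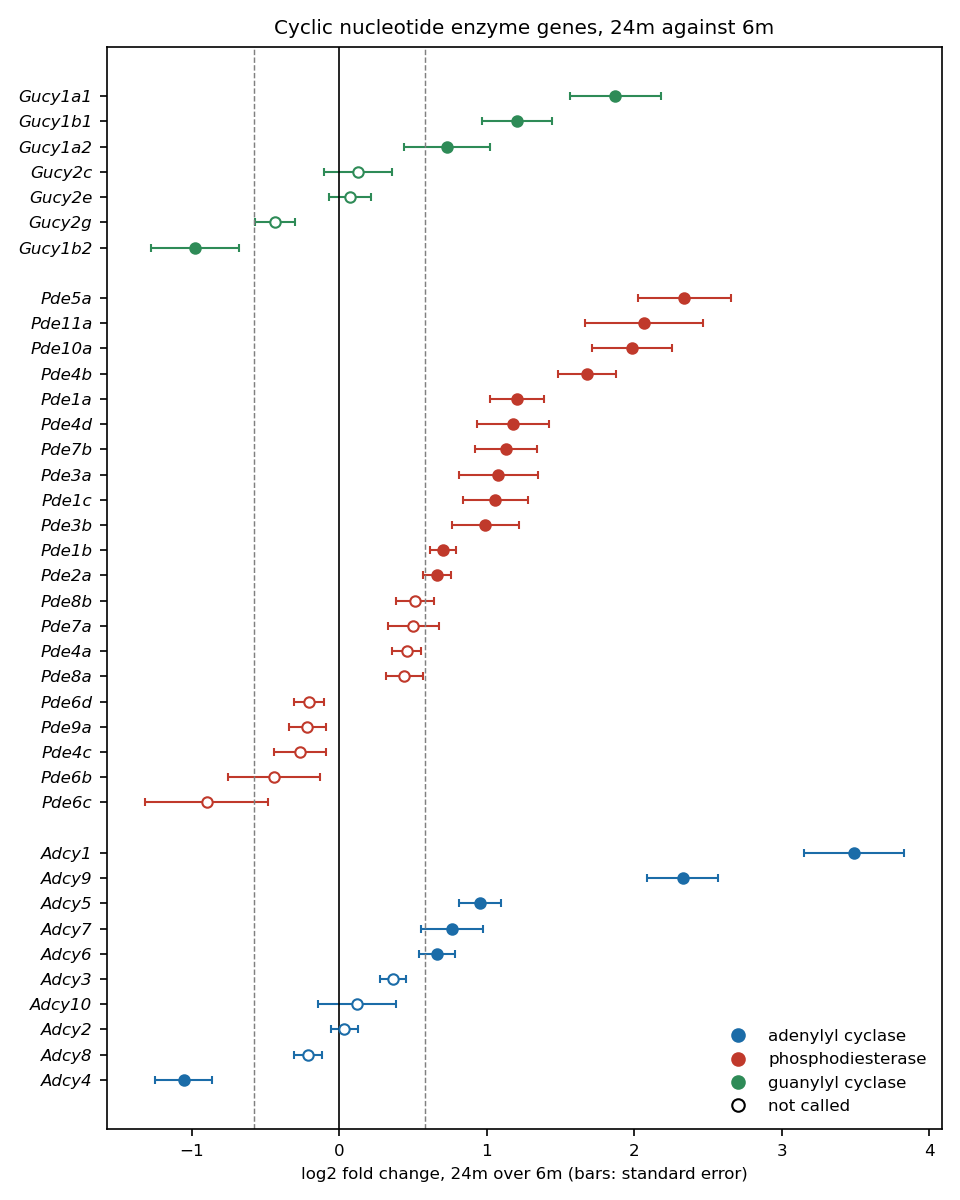
Log2 fold change of the 38 tested genes, 24m over 6m, on the horizontal axis with standard errors as bars, sorted within family and coloured by it. Filled points were called, open ones were not, and dashed lines mark 0.58 in each direction; 20 filled points lie on the right, with Adcy1 at 3.49 the farthest, and 2 on the left.

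The bases before the transcript start are given, from RefSeq on GRCm38.p6, for the 2 genes of the largest rise in each family: Adcy1 and Adcy9, Pde5a and Pde11a, and the subunit pair Gucy1a1 and Gucy1b1. Pde4b, which also rose, is added because its window holds the motif searched for. Windows of Pde4a and Gucy2e, which were not called, hold that motif too and are not printed. Each run holds the 250 bases before the start, 5′ to 3′ on the strand of the gene, from the most upstream start where a gene has several. Capitals mark TGACGT or its reverse complement ACGTCA, the core of the cAMP response element to which CREB binds.
Adcy1, chr11:7063183-7063432, plus strand: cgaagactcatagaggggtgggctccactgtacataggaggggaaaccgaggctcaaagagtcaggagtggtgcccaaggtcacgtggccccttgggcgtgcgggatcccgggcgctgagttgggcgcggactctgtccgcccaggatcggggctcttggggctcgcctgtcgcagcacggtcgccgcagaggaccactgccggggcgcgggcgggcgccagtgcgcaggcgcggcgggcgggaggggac
Adcy9, chr16:4420499-4420748, minus strand: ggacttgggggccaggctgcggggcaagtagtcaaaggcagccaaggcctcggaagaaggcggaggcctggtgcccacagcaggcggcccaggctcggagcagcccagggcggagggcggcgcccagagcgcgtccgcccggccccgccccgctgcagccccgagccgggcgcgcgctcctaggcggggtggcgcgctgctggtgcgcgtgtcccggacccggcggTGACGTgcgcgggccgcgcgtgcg
Pde5a, chr3:122728908-122729157, plus strand: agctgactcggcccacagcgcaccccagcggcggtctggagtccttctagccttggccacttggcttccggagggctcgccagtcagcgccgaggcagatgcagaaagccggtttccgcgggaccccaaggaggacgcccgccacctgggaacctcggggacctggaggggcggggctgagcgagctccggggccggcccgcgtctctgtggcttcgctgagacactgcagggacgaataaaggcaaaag
Pde11a, chr2:76338939-76339188, minus strand: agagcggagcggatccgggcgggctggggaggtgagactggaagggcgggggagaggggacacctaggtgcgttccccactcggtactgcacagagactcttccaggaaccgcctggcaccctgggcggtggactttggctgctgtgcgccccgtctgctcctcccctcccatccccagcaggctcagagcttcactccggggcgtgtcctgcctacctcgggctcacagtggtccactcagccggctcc
Pde4b, chr4:102421305-102421554, plus strand: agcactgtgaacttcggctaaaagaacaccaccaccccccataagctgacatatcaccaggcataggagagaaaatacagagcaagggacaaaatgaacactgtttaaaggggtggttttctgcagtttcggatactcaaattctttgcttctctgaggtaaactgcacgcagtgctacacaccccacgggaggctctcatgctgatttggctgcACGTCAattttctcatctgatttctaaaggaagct
Gucy1a1, chr3:82145651-82145900, minus strand: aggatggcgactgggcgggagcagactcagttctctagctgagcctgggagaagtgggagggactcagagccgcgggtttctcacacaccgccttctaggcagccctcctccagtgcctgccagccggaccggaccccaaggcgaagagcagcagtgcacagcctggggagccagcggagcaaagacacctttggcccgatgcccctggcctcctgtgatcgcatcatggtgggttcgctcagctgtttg
Gucy1b1, chr3:82074712-82074961, minus strand: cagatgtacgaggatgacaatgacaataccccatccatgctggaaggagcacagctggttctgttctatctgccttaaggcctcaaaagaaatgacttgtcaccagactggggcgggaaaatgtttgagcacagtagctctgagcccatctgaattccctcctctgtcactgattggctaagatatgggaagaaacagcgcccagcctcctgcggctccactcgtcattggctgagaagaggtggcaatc

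Windows were found for 32 of the 41 genes, 58 in all. TGACGT on either strand occurred in 4 of the 58 (6.90%), in windows of Adcy9, Pde4a, Pde4b and Gucy2e, and in 6.47% of all 32851 windows of that length. Of these 4 genes, Adcy9 and Pde4b rose at 24m, and Pde4a and Gucy2e were not called. The full palindrome TGACGTCA, each match of which also holds the shorter motif, occurred in 0 of the 58 and in 1.55% of all windows. The GC box GGGCGG, or CCGCCC, occurred in 21 of the 58 (36.2%) and in 32.7% of all. The window of Adcy9 was rich in G and C at 78.8% of bases, and that of Pde4b held 46%. The genes Gucy1a1 (GRCm39 chromosome 3, 81999733 to 82053216, minus strand) and Gucy1b1 (81939312 to 81982022, minus strand) are neighbours.

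Adcy1, the calcium- and calmodulin-stimulated cyclase known for its part in synaptic plasticity, changed the most of all 38. Its level was 7.82, 10.5, 8.84 and 8.32 CPM in the 6m libraries and 42.6, 94.8, 107.6 and 154 CPM in the 24m libraries. Every 24m library lay above every 6m library, and 24m replicate 1 was the lowest of its group. The log2 fold change was 3.49 ± 0.34 (SE; 11.2-fold, adjusted p = 5.86e-05), the rank 20 among all tested genes. Without 24m replicate 1 it was 3.75, and with the trend over exonic length removed, an alternative described further on, 2.97. The gene lies on GRCm39 chromosome 11, 7013330 to 7128506, plus strand. Adcy1 is known from granule cells of the cerebellum, among other neurons, and a list of markers of these cells summed to 126.8 to 194.5 CPM at 6m and 237.4 to 244.2 at 24m, with 4 of 5 called higher and none of the 5 at 0 counts in all libraries. The part of these cells in the result was not tested.

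The other calcium-stimulated cyclases did not pass. Adcy3, a cyclase of neuronal cilia and olfactory neurons, had a log2 change of 0.36 ± 0.09 (adjusted p = 0.00551), under the fold threshold, and all its 24m libraries lay above those of 6m. Adcy8, which shares roles with Adcy1 in the hippocampus, had a value of -0.21 ± 0.09 (adjusted p = 0.0726), with overlapping groups. Exons of Adcy3 overlap those of Cenpo on the other strand by 2363 bases, and whether the counting used strand is not given in the sources used here.

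Adcy9, a membrane cyclase that responds poorly to the plant compound forskolin, had the second largest change among the adenylyl cyclases. It stood at 9.18, 11.9, 11.4 and 10.6 CPM at 6m and at 30.4, 50.1, 63.5 and 72.2 CPM at 24m. The groups did not overlap, and the log2 change was 2.33 ± 0.24 (5.02-fold, adjusted p = 7.4e-05).

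The calcium-inhibited cyclases both rose. Adcy5, the main cyclase of the striatum, was at 115, 121.8, 129 and 149.6 CPM at 6m and at 187, 244, 293 and 274 CPM at 24m, again with no overlap. Its log2 change was 0.95 ± 0.14 (adjusted p = 0.000461). Adcy6, found in many tissues, went from 14.7, 16.3, 17.9 and 16.6 CPM to 20.4, 26.7, 28.7 and 28.1 CPM, a log2 change of 0.66 ± 0.12 (adjusted p = 0.00129). The call of Adcy6 was lost in 2 of 17 alternatives, at 0.46 with the length trend removed and at 0.50 with quantile-normalized counts in DESeq2. A list of 8 markers of striatal projection neurons, 2 called higher and 1 lower, summed to 1238 to 1509 CPM at 6m and 933 to 1227 at 24m.

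The cyclases stimulated by G protein beta-gamma subunits differed among themselves. Adcy4 fell, from 3.78, 2.69, 3.10 and 3.21 CPM to 1.82, 1.65, 1.62 and 1.04 CPM. All 24m libraries lay below all 6m libraries, with a log2 change of -1.06 ± 0.19 (adjusted p = 0.00123). Adcy4 is known from vessel walls. Markers of endothelial cells summed to 40.3 to 57.1 CPM at 6m and 28.3 to 45.0 at 24m, which overlap, and those of pericytes and vascular smooth muscle to 175.5 to 237.2 at 6m and 117.8 to 157.9 at 24m, lower in all 4 libraries. Of these lists 1 of 6 and 3 of 7 genes were called lower and 1 and 2 higher, none was at 0 counts in all libraries, and their part in the result was not tested. Adcy7, a cyclase of blood and immune cells, rose from 2.85, 3.21, 3.15 and 3.40 CPM to 3.38, 5.12, 5.67 and 7.26 CPM. The groups overlapped, since 24m replicate 1 lay under the highest 6m library, and the log2 change was 0.76 ± 0.21 (adjusted p = 0.00999). The call was lost in 3 of 17 alternatives: with quantile-normalized counts in DESeq2 (0.40, adjusted p = 0.0546), with the length trend removed (0.30, adjusted p = 0.114) and without 24m replicate 4 (0.58, just under the threshold). Markers of microglia summed to 418.8 to 450.4 CPM at 6m and 428.2 to 577.8 at 24m, with 2 of 7 called higher, and their part was not tested either. Adcy2 was not called, at 0.03 ± 0.09 on the log2 scale (adjusted p = 0.761). Adcy10, the soluble cyclase activated by bicarbonate, averaged 0.307 CPM at 6m and 0.334 at 24m and was not called. Exons of Adcy7 overlap Brd7 by 1505 bases and those of Adcy2 overlap Cfap90 by 1637 bases, each on the other strand.

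**Figure D2:**
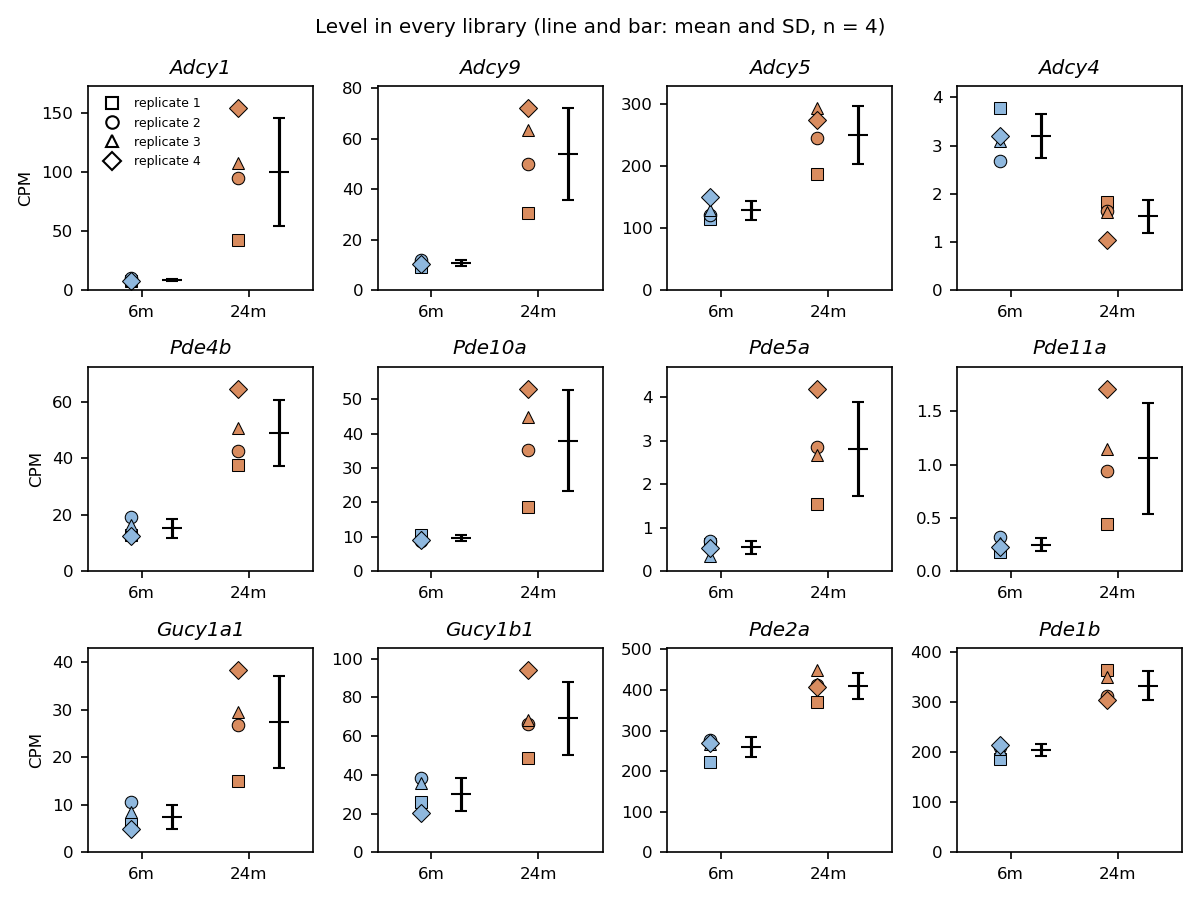
CPM of 12 genes (one panel each, vertical axis from 0) in the 4 libraries of 6m and the 4 of 24m, with the replicate number as the marker and the mean and SD beside it. In Adcy1 the 6m libraries sit between 7.82 and 10.5 CPM and the 24m libraries between 42.6 and 154, and Adcy4 is the panel in which all 24m libraries are the lower ones.

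Among phosphodiesterases, all 8 that hydrolyse both nucleotides were called higher, and 3 of these 8 calls (Pde1a, Pde10a and Pde11a) held with the trend over exonic length removed. Of the cAMP-specific genes 3 of 8 rose, and of the tested cGMP-specific ones 1 of 4, where 25.3% of all tested genes rose. The difference between these subgroups was not tested. The median log2 fold changes were 1.07, 0.51 and -0.33.

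Pde2a and Pde1b are the most abundant of the dual-specificity genes. Pde2a, an enzyme activated by cGMP, was at 223, 276, 268 and 269 CPM at 6m and at 370, 412, 449.6 and 407 CPM at 24m. Pde1b, a calcium- and calmodulin-dependent enzyme rich in the striatum, was at 186, 209.6, 205 and 214 CPM at 6m and at 363, 312, 349 and 303 CPM at 24m. Neither overlapped between groups, and the log2 fold changes were modest, 0.66 ± 0.10 for Pde2a (adjusted p = 0.000397) and 0.70 ± 0.09 for Pde1b (adjusted p = 0.000191). Among the 20 genes that rose, Pde1b was the only one in which 24m replicate 1 was not the lowest of its group. Both overlap other listed genes, Pde2a with Gm45837 on the same strand by 3955 exonic bases and Pde1b with Ppp1r1a on the other strand by 2453, so their counts carry that uncertainty.

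The other calmodulin-dependent genes also rose. Pde1a went from 11.8, 15.8, 14.1 and 11.5 CPM to 21.0, 31.6, 31.7 and 38.3 CPM, a log2 change of 1.20 ± 0.18 (adjusted p = 0.000466). Pde1c went from 1.62, 1.63, 1.34 and 1.41 CPM to 1.94, 3.31, 3.17 and 4.09 CPM, a log2 change of 1.06 ± 0.22 (adjusted p = 0.00232). In both, the lowest 24m library was above the highest 6m library.

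Pde10a, known for its high level in the projection neurons of the striatum, was at 10.5, 8.76, 10.1 and 9.06 CPM at 6m. At 24m it was at 18.7, 35.4, 44.8 and 53.0 CPM. The groups stood apart, with a log2 change of 1.98 ± 0.27 (3.95-fold, adjusted p = 0.00028). The striatal marker list given beside Adcy5 did not rise with it, since its summed level at 24m lay below that at 6m in all 4 libraries. The enzymes inhibited by cGMP were scarce. Pde3a went from 0.625, 0.651, 0.597 and 0.923 CPM to 0.859, 1.46, 1.61 and 1.99 CPM, with 24m replicate 1 inside the 6m range, and a log2 change of 1.08 ± 0.27 (adjusted p = 0.00635). Pde3b, which acts in insulin signalling, went from 2.27, 2.32, 2.09 and 1.39 CPM to 2.66, 4.16, 4.08 and 5.16 CPM, a log2 change of 0.99 ± 0.23 (adjusted p = 0.00417). Pde11a, whose RNA is known from the hippocampus, stayed at 0.183 to 0.325 CPM at 6m and reached 0.444 to 1.71 CPM at 24m, a log2 change of 2.07 ± 0.40 (adjusted p = 0.00169).

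Of the cAMP-specific genes, Pde4b changed the most. This target of the inhibitor rolipram was at 12.8, 19.4, 16.5 and 12.4 CPM at 6m and at 37.7, 42.7, 50.7 and 64.6 CPM at 24m. The lowest 24m library was above the highest 6m library, and the log2 change was 1.68 ± 0.20 (3.21-fold, adjusted p = 0.000137). Its paralog Pde4d went from 4.60, 6.70, 6.19 and 5.08 CPM to 7.79, 12.03, 12.6 and 18.7 CPM, a log2 change of 1.18 ± 0.24 (adjusted p = 0.00237). Pde7b, another striatal enzyme, went from 4.79, 4.67, 5.13 and 5.33 CPM to 6.69, 10.3, 12.2 and 14.4 CPM, a log2 change of 1.13 ± 0.21 (adjusted p = 0.00129). Neither of these overlapped between the ages. Pde4a, Pde7a, Pde8a and Pde8b had adjusted p-values from 0.00269 to 0.0293 and log2 fold changes from 0.44 to 0.51, under the fold threshold. Pde4c was not called at -0.27 ± 0.17 (adjusted p = 0.205).

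Among genes for cGMP-specific enzymes, Pde5a, the target of sildenafil, rose from 0.625, 0.693, 0.365 and 0.530 CPM to 1.55, 2.87, 2.67 and 4.20 CPM. It was 5.06-fold higher, with a log2 change of 2.34 ± 0.32 (adjusted p = 0.000265), and the groups did not overlap. Pde9a, the cGMP-specific gene of the highest level in these brains, had a log2 change of -0.22 ± 0.13 (adjusted p = 0.153). Its 24m replicate 1 was at 44.3 CPM, and the other 24m libraries, at 30.85 to 34.2 CPM, lay under every 6m library. In the edgeR fit without 24m replicate 1 the log2 change of Pde9a was -0.33 (adjusted p = 0.00688), under the fold threshold. The photoreceptor genes Pde6b and Pde6c averaged at most 0.384 CPM in either age and were not called, at -0.44 ± 0.31 and -0.90 ± 0.42 on the log2 scale. Of 9 markers of photoreceptors and the pineal gland, 7 were tested and 4 were called lower, and the list summed to 6.51 to 7.06 CPM at 6m and 3.86 to 5.61 at 24m. Pde6d, the prenyl-binding protein, was at -0.21 ± 0.10 (adjusted p = 0.101).

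The nitric oxide receptor is a dimer of an alpha and a beta subunit. Gucy1a1, an alpha subunit, was at 5.94, 10.7, 8.41 and 4.93 CPM at 6m and at 15, 26.8, 29.6 and 38.4 CPM at 24m, with no overlap and a log2 change of 1.87 ± 0.31 (3.66-fold, adjusted p = 0.000734). Gucy1b1, the beta subunit that both alpha subunits need, was at 25.9, 38.3, 35.7 and 20.3 CPM at 6m and at 48.5, 66.3, 68.1 and 94.2 CPM at 24m, with a log2 change of 1.21 ± 0.24 (adjusted p = 0.00184). The other alpha subunit, Gucy1a2, was at 0.884, 1.03, 0.995 and 1.07 CPM at 6m and at 0.840, 1.64, 1.65 and 2.51 CPM at 24m. Its groups overlapped, and its call (log2 fold change 0.73 ± 0.29, adjusted p = 0.0491) was lost in 12 of 16 alternative analyses. Gucy1b2 fell, with every 24m library (0.108 to 0.241 CPM) below every 6m library (0.282 to 0.439), a log2 change of -0.98 ± 0.30 and an adjusted p of 0.0165. This scarce gene shares 512 exonic bases with Rnaseh2b on the other strand.

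Per exonic kilobase, Gucy1b1 exceeded the sum of its alpha subunits 9.25 ± 0.71 times at 6m and 6.24 ± 1.00 times at 24m (SD, n = 4), and the ranges, 8.38 to 9.87 and 5.51 to 7.72, did not overlap. Gucy1a1 exceeded Gucy1a2 12.7 ± 4.15 times at 6m and 28.5 ± 2.18 times at 24m on the same scale. These genes differ in length, and with the length trend removed the log2 changes of Gucy1a1 and Gucy1b1 were 1.45 and 1.27, closer to each other than the 1.87 and 1.21 of the fit above.

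Of the 5 receptor-type guanylyl cyclases, Gucy2d and Gucy2f were not tested, and the 3 tested were not called in either direction in the edgeR fit. Gucy2g, the most abundant of them here, had a log2 change of -0.43 ± 0.14 (adjusted p = 0.0183), under the fold threshold. With quantile-normalized counts in DESeq2 it was called lower, at -0.64 (adjusted p = 0.000486). Gucy2c, the intestinal receptor of guanylin, and Gucy2e, a retinal cyclase, were at 0.13 ± 0.23 and 0.07 ± 0.14.

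To set genes beside each other, CPM were divided by the union exonic length in kilobases. At 6m the adenylyl cyclase of the highest level was Adcy5 (17.4 ± 2.02 CPM per kb, SD, n = 4), followed by Adcy2 (11.04 ± 0.89), Adcy3 (5.42 ± 0.37), Adcy8 (4.71 ± 0.26) and Adcy6 (2.35 ± 0.19). At 24m Adcy5 stood at 33.7 ± 6.29 and Adcy2 at 11.3 ± 0.87, and Adcy1 had moved from 0.700 ± 0.09 to 7.87 ± 3.61, within its SD of Adcy3 at 6.96 ± 0.56. In shares of the summed adenylyl cyclase level, Adcy1 went from 1.62 ± 0.23% to 10.5 ± 3.46%, Adcy5 from 40.1 ± 1.82% to 46.9 ± 1.93% and Adcy2 from 25.5 ± 1.28% to 16.0 ± 1.92%. Adcy5 exceeded Adcy1 25.2 ± 4.46 times at 6m and 4.91 ± 1.87 times at 24m.

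Among the phosphodiesterases, Pde2a (34.5 ± 3.20 CPM per kb) and Pde1b (29.4 ± 1.77) led at 6m and again at 24m, at 54.5 ± 4.34 and 47.9 ± 4.20. Pde2a made up 36.9 ± 1.26% of the summed enzyme level at 6m and 37.6 ± 1.51% at 24m, and Pde9a 10.7 ± 1.46% and 5.93 ± 1.18%. Among the guanylyl cyclases, Gucy1b1 led at both ages and went from 54.1 ± 5.18% to 70.5 ± 4.28% of the sum, and Gucy2g from 34.6 ± 3.91% to 15.0 ± 5.56%.

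**Figure D3:**
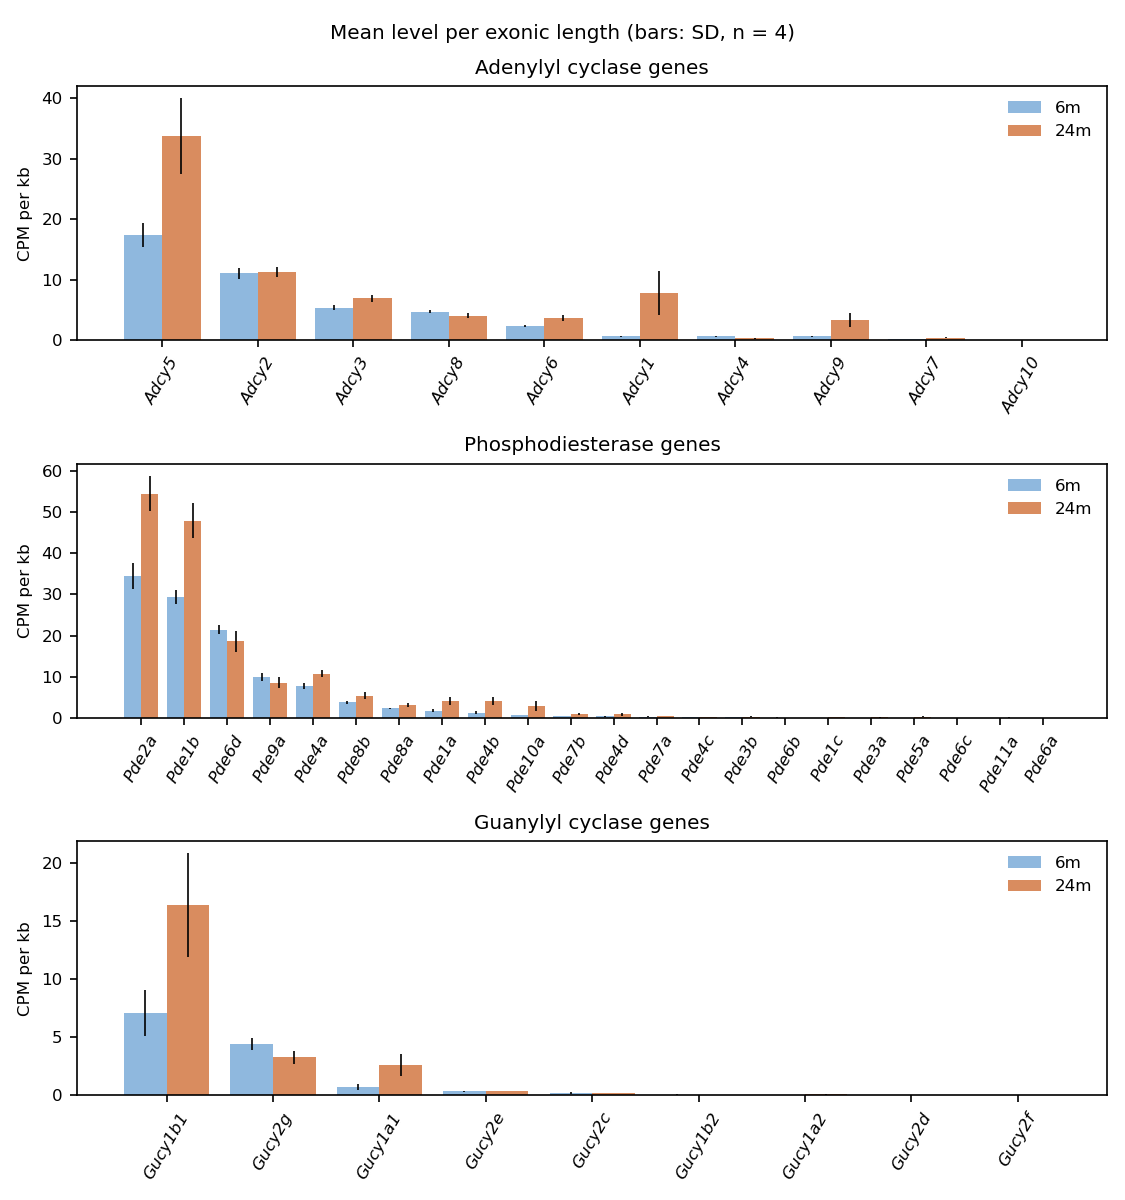
Mean CPM per kilobase of exonic length for the 41 genes, by family and in the order of the 6m level, with SD bars over 4 libraries of each age. Adcy5, Pde2a and Gucy1b1 hold the tallest bars of their families at both ages, and Adcy1 moves from 0.700 to 7.87 CPM per kb.

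Summed over the family, adenylyl cyclases were at 39.1, 42.5, 44.3 and 47.2 CPM per kb in the 6m libraries and at 53.9, 70.8, 80.1 and 82.6 in the 24m libraries. Phosphodiesterase genes, Pde6d included, summed to 105.6, 117, 117 and 119.8 CPM per kb at 6m and to 160.3, 159, 172 and 162 at 24m. Both sums were higher in every 24m library than in any 6m library. The dual-specificity enzymes made up most of the second sum, 66.7 ± 5.005 at 6m and 110.1 ± 5.73 at 24m, beside 16.5 ± 1.29 and 25.8 ± 3.71 for the cAMP-specific ones and 10.2 ± 0.97 and 8.91 ± 1.31 for the cGMP-specific ones, whose ranges overlapped. That overlap came from 24m replicate 1, at 10.8. The other 24m libraries, at 7.84 to 8.52, lay under the lowest 6m library, at 9.30. The guanylyl cyclases summed to 12.9 ± 2.62 and 23.0 ± 4.92.

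The ratio of summed phosphodiesterase to summed adenylyl cyclase level, as a description without a test, was 2.66 ± 0.10 at 6m and 2.33 ± 0.44 at 24m, and the ranges overlapped. It was 2.70, 2.76, 2.63 and 2.54 in the 6m libraries and 2.98, 2.25, 2.15 and 1.96 in the 24m libraries. Library 24m replicate 1 was the highest of all 8 and the other 24m libraries were the lowest, with a 24m mean of 2.12 without that library. For the enzymes that degrade cAMP, of either specificity, over adenylyl cyclases the ratio was 1.93 ± 0.10 at 6m and 1.93 ± 0.30 at 24m. The 24m mean rests on replicate 1 at 2.36, since the other 24m libraries were at 1.88, 1.82 and 1.67 and the 6m libraries at 1.81 to 2.05. Without Pde6d the ratio of all was 2.16 ± 0.09 and 2.06 ± 0.35, and without Adcy1 it was 2.70 ± 0.10 and 2.60 ± 0.39. In these variants too 24m replicate 1 was the highest of all 8 libraries, at 2.56 without Pde6d and 3.17 without Adcy1, and the other 24m libraries, at 1.76 to 2.00 and 2.30 to 2.51, lay under every 6m library. Sums of RNA levels are not a measure of enzyme activity.

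**Figure D4:**
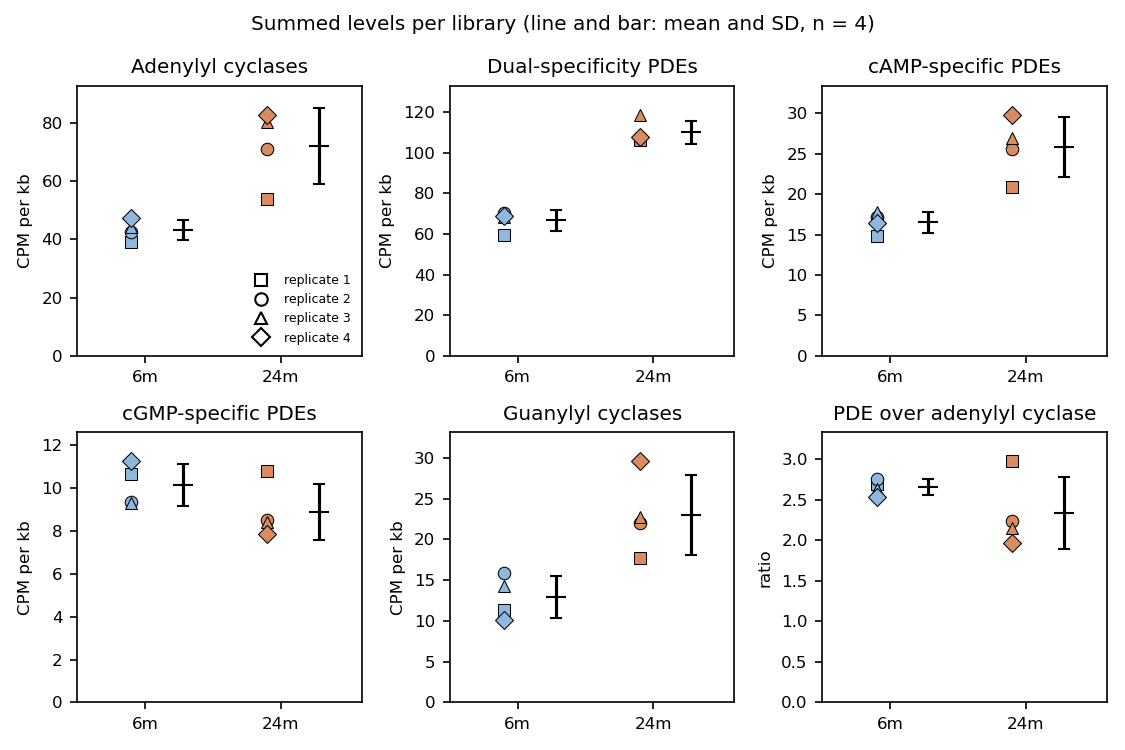
Summed CPM per kb of adenylyl cyclases, of 3 kinds of phosphodiesterase (PDE) and of guanylyl cyclases, and the ratio of phosphodiesterases to adenylyl cyclases, in each library by replicate number, with mean and SD. The adenylyl cyclase sum separates the ages (39.1 to 47.2 against 53.9 to 82.6), and the ratio overlaps, with 24m replicate 1 at 2.98 and the other 24m libraries at 1.96 to 2.25.

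The size of the rise differed between the 24m libraries in the same way for nearly all genes that rose. Library 24m replicate 1 held the lowest 24m level in 19 of the 20 genes called higher and replicate 4 the highest in 16. Over all 4237 genes called higher, these libraries held the lowest level in 86.4% and the highest in 77.0%. Without 24m replicate 1, 22 of the 38 genes were called higher, beside 27.8% of all tested genes, and no gene called in the full fit was lost.

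The log2 fold change moved with gene length. Tested members had a median union exonic length of 8867 bases, against 5768 for all tested genes, and 29 of 38 were longer than that. Across these 38 genes, which share the 8 libraries and are not independent, Spearman's rho of log2 fold change with length was 0.63, and across all tested genes it was 0.42. With a smoothed trend over length removed in each library, 12 of the 38 were called higher and the median was 0.30, where 21.3% of all tested genes were called higher with a median of -0.03. Adcy1 (2.97), Pde5a (1.89), Adcy9 (1.74), Pde11a (1.6), Pde10a (1.46), Gucy1a1 (1.45), Gucy1b1 (1.27), Pde4b (1.23), Pde1a (0.95), Adcy5 (0.71), Pde4d (0.63) and Pde7b (0.63) were the 12, and Adcy4 and Gucy1b2 were still called lower. The calls of Adcy6, Adcy7, Gucy1a2, Pde1b, Pde1c, Pde2a, Pde3a and Pde3b were lost, their log2 fold changes lying between 0.09 and 0.57. The part of length in the results was not tested beyond this.

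**Figure D5:**
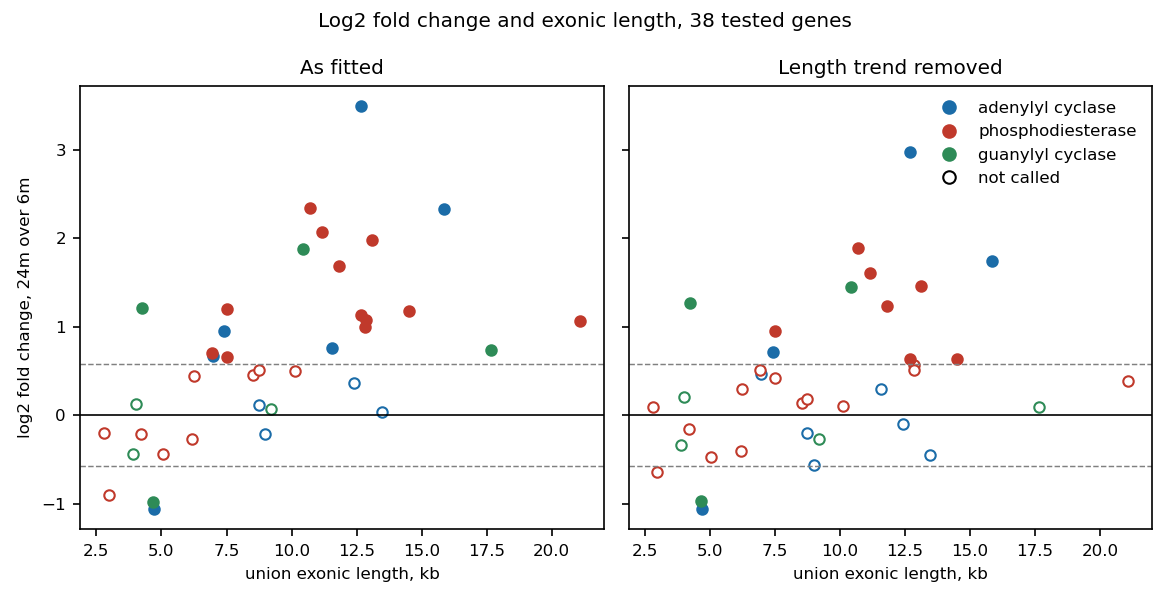
Log2 fold change, 24m over 6m, against union exonic length in kb for the 38 tested genes, as fitted on the left and with the length trend removed on the right; filled points were called. The number of points called higher goes from 20 to 12, and Adcy1 stays on top at 2.97.

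The genes that act before and after these enzymes were read from 11 lists of 83 genes, 81 of them tested. Of these, 32 were called higher (background 25.3%) and 3 lower (18.3%), and their median log2 change was 0.39. The genes called lower were Pkig, Pde6g and Guca1b, of which the last pair, averaging under 1 CPM and named for this count after their values were seen, belong to photoreceptors.

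Upstream, beside the same 25.3%, 4 of 7 alpha subunits of the Gs and Gi families rose, among them Gnai3 (1.62 ± 0.27 on the log2 scale), which inhibits cyclases, and Gnao1 (1.18 ± 0.15), the abundant alpha subunit of neurons. Gnas, the stimulatory subunit and the most abundant of the list, named after its values were seen, was not called and lay at 2488 ± 102.6 CPM at 6m and 2001 ± 53.8 at 24m (log2 change -0.31 ± 0.08, adjusted p = 0.00791), and the list as a whole summed to 2807 to 3052 CPM at 6m and 2566 to 2833 at 24m. Of 18 receptors that couple to Gs, 8 rose, from Adcyap1r1, the receptor of the neuropeptide PACAP (1.98 ± 0.14, from 19.99 to 78.9 CPM), to the beta-adrenergic receptor gene Adrb1 (0.71 ± 0.20). Nos1, the neuronal nitric oxide synthase that makes the ligand of the soluble guanylyl cyclases, rose from 3.88 ± 0.41 to 32.2 ± 13.7 CPM (SD, n = 4), a log2 change of 3.05 ± 0.31 (adjusted p = 6.89e-05). It was the only gene called higher of the 7 in the list of nitric oxide synthases, natriuretic peptide receptors and activating proteins.

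Downstream, where each count stands beside the 25.3% of all tested genes called higher, 5 of 9 genes of protein kinase A and its inhibitors rose and 1 fell. The catalytic subunit gene Prkacb went from 18.3 ± 5.70 to 98.05 ± 30.0 CPM, a log2 change of 2.42 ± 0.28 (adjusted p = 0.000118), and the inhibitor gene Pkig from 146.9 ± 12.5 to 75.7 ± 12.1 CPM, a log2 change of -0.96 ± 0.12 (adjusted p = 0.000183). Of the cGMP-dependent kinases, Prkg1 rose (1.47 ± 0.33, adjusted p = 0.00354) and Prkg2 was not called (0.54 ± 0.30, adjusted p = 0.139). Among the anchoring proteins that hold protein kinase A in place, 5 of 10 rose, from Akap11 (2.28 ± 0.38) to Akap12 (0.66 ± 0.17). Of 12 tested sensors of other kinds, 4 rose, from the pacemaker channel gene Hcn4 (1.83 ± 0.21) to Rapgef4, an exchange factor activated by cAMP (0.80 ± 0.19). In the CREB list 3 of 7 rose, the coactivator genes Crtc1 (1.68 ± 0.09) and Crtc3 (1.17 ± 0.16) among them. Pde4dip, which anchors phosphodiesterase, rose by 0.85 ± 0.15, and the exporters Abcc4 (0.50 ± 0.13, adjusted p = 0.00888) and Abcc5 (0.09 ± 0.07, adjusted p = 0.289) did not pass.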

How the data were processed

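Poly(A)-selected RNA of 4 brains at 6m and 4 at 24m was sequenced as directional paired-end libraries. Per the labels and the study's methods, the authors trimmed reads with Trim Galore 0.4.11, aligned them to GRCm39 with HISAT2 2.1.0 and counted them per gene with featureCounts; strand and multimapping settings are not given in the sources used here. The deposited values are raw whole-number counts, with 63460940 to 103462414 per library. Gene IDs were matched to GENCODE vM39 of the same assembly (22281 of 22430 genes; 0.31% of counts lay in the rest), which gave symbols, coordinates and union exonic lengths.

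The 16730 genes that exceeded 5 counts in 4 or more libraries were tested with edgeR 4.0.16 (R 4.3.3): TMM factors, the quasi-likelihood test with age as the only term, and Benjamini-Hochberg adjustment over all tested genes. A call is an adjusted p of at most 0.05 with an absolute log2 fold change of at least 0.58. CPM are counts over the TMM-scaled library size; SE is the log2 fold change over the square root of F. Members called with a mean of at least 1 CPM were given by library and the others by range; of each pathway list, the called genes of largest and smallest change among those at 1 CPM or more were named, and every gene of lists of 3 or fewer, except that the values of a withheld item and its list are not reported here. The members and lists were chosen with earlier results of these data known. In data simulated for 24m against 6m over 16730 genes, with 200 genes changed by 1 on the log2 scale, the fit called 68.0% of them: 96.4% of the 83 over 20 CPM, 68.0% of the 75 from 1 to 20 CPM and 11.9% of the 42 under 1 CPM. Far fewer genes changed there than the 43.6% called in these data. The adjustment of p is stricter in that setting, so these shares are not the recovery of the fit to the data. Alternatives used DESeq2 1.42.0, other scalings and filters, trends over length or GC content, a replicate block and each library left out.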

Additional observations from a re-analysis of the deposited data

Results flagged for a closer look

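In 78 groups of 4 libraries (each of the 38 tested genes on the log2 scale and the phosphodiesterase to adenylyl cyclase ratio, at each age), a gap between the most distant library and its neighbour was compared with Dixon's critical value for 4 samples, as a share of the range. Chance marks about 1 in 20 such groups, and 2 were marked. Adcy2 at 6m was at 131 CPM in replicate 1 and at 153 to 157 CPM in the others. Pde2a at 6m was at 223 CPM in the same library and at 268 to 276 CPM in the others. Adcy2 was not called, and without 6m replicate 1 its log2 fold change was -0.02; Pde2a was called with or without that library.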

How the results depend on the processing

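Of the 38 genes tested, 12 kept a call of higher when the length trend was removed (Adcy 3, Pde 7), and with it 9 pathway genes were called lower in place of 3. DESeq2 on quantile-normalized counts called 3 adenylyl cyclases higher, 2 guanylyl cyclases lower (Gucy1b2 and Gucy2g) and 10 pathway genes lower. With the GC trend removed 1 phosphodiesterase (Pde6c) and 8 pathway genes were called lower. A filter at 1 CPM left 30 of the genes, with 1 called lower, and 0 guanylyl cyclases lower. By adjusted p alone, 2 guanylyl cyclases, 11 pathway genes and 4999 of all genes were lower, where 3058 passed both thresholds, and with library totals 1746 were. The ratio of phosphodiesterase to adenylyl cyclase was 1.72 at 6m and 1.65 at 24m without division by length, and 2.16 at 6m without Pde6d. Leaving out each library gave 18 to 22 genes called higher and 3 to 5 pathway genes lower, with 5 when replicate 2 or 4 of 6m was left out, or replicate 1 of 24m. The causes of these shifts were not tested. The signs of uncalled genes turned: Adcy2 to -0.45 (length), -0.14 (GC) and -0.02 to 0.10 (a library left out), Adcy3 to -0.10 (length), Adcy8 to 0.01 (totals), Adcy10 to -0.20 (length), -0.05 (GC) and -0.02 to 0.25 (a library left out), Gucy2c to -0.11 (quantiles) and -0.01 to 0.35 (a library left out), Gucy2e to -0.26 (quantiles), -0.27 (length) and -0.02 to 0.15 (a library left out), and Pde6d to 0.01 (totals) and 0.09 (length). No label pairs animals of the same replicate number across the ages. The correlations of their deviations were 0.39, 0.24, 0.19 and -0.54 for replicates 1 to 4. The highest correlation of each 6m library with a 24m library of another number was -0.02, 0.58, 0.52 and 0.51. With the replicate number as a block, 5 pathway genes were lower, and all 38 genes kept their side of the thresholds. In the simulation, changes of genes under 1 CPM were recovered less often than those of genes at higher levels, and depth itself was not varied.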
